A study of Homo sapiens with 3 samples.

Results

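Core histones are the proteins around which nuclear DNA is wound. The core histone genes described here are the 76 protein-coding genes, of 44591 genes in the deposited table (19233 of them protein-coding), whose symbols name an H2A, H2B, H3 or H4 gene of the HIST1 to HIST4 loci or a gene of the H2AF and H3F3 families. The first kind, 64 genes, lies in the histone gene clusters and is called the cluster genes below. Of these, 49 lie in the HIST1 cluster on chromosome 6 (25726291 to 27861669 in the hg19 coordinates of the table), 11 in HIST2 and 3 in HIST3 on chromosome 1, and 1 is HIST4H4 on chromosome 12. The other 12 are variant genes, 9 of the H2A and 3 of the H3 family. The rule of choice used names and gene type and no measured value, but it was set with earlier results of these data known.

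RNA was taken from Caki-1 cells, an established human line of clear cell renal cell carcinoma, 48 h after the cells had received si-Control, si-RBCK1 #1 or si-RBCK1 #2 (siRNAs against RBCK1, which the labels call by its synonym HOIL-1). RBCK1 encodes a ubiquitin ligase subunit, and the comparison asks how gene expression differs after its depletion. Each condition had 1 library, so differences could not be set against a spread between replicates, no p-value was computed, and both siRNAs were compared with the same si-Control library. The si-RBCK1 libraries came from different siRNAs and were kept apart. The labels describe removal of ribosomal RNA from total RNA and a directional library kit. The deposited unit is RPKM, the reads of a gene scaled by its length and by the size of the library. Groups of 3 values are given in the order si-Control, si-RBCK1 #1, si-RBCK1 #2, and pairs of ratios in the order si-RBCK1 #1, si-RBCK1 #2. The libraries held 36926834, 40442939 and 36344428 reads by the scale of their values. Of the 71 core histone genes above 0 in some library, 61 gave whole reads to within 0.01 of a read with their annotated span. For the other 10 a length was searched until the values fitted, so their fit was by construction. RBCK1 was at 33.3, 9.97 and 12.3 RPKM. The renal carcinoma markers PAX8, VIM, KRT8, KRT18 and CDH2 were present in all 3 libraries, while PAX2 and EPCAM were near 0 and KRT19 did not exceed 1.38 RPKM. The leukocyte, endothelial and erythroid markers were at or near 0, and among fibroblast markers COL1A1 lay between 3.21 and 4.68 RPKM.

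Replication-dependent histone genes are transcribed in S phase, when new chromatin has to be packed. Their mRNAs are the usual example of mRNAs without a poly(A) tail: they end just after a short conserved stem-loop that is bound by SLBP, the stem-loop binding protein, although some of these genes also give polyadenylated transcripts. Histone variants such as H2A.Z and H3.3 are made from separate genes throughout the cell cycle, mostly as ordinary polyadenylated mRNAs, and are placed into chromatin by their own chaperones.

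The stem-loop is shown for the genes on which the results turn, because it is the element in which mRNAs of cluster genes usually end. Each line gives the stem-loop in capitals with 5 bases on either side, 5′ to 3′, from the coding transcripts of GENCODE v29.

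HIST1H2AC: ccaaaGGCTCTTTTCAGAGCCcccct
HIST1H2BC: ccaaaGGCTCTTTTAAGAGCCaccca
HIST1H2BD: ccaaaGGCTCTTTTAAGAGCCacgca
HIST2H2BE: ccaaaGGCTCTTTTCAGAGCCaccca
HIST3H2A: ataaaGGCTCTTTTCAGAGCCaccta
HIST2H2AA3: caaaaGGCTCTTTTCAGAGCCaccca
HIST1H4H: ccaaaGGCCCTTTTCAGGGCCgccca
HIST2H4B: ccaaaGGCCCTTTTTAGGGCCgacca
H2AFX: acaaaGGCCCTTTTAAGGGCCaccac

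A stem-loop of these 16 bases, in 1 of 6 spellings, was found in an annotated coding transcript of 31 of the 64 cluster genes and of 1 of the 12 variant genes, H2AFX. Many of the other cluster transcripts are annotated only to about the end of the coding sequence, so a missing match says nothing about those genes. The spelling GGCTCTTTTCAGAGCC occurred in 17 genes, of the H2A, H2B and H3 families. The H4 genes carried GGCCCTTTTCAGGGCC (5 genes) or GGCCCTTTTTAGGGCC (3 genes). In H2AFX the spelling was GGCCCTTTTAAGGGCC, which no cluster gene had. Among the 14 cluster genes whose mean reached 1 RPKM, 10 had a match. For 8 of these 10 the annotated transcript ran on for at least 100 bases beyond the loop, as it did for 14 of the 21 matched cluster genes under that mean. HIST1H2AC has an annotated transcript of 1654 bases with 1114 of them after the loop, but the gene length behind its RPKM value is 546 nt, so reads from most of that extension do not enter its value.

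The cluster genes were low in all 3 libraries. Of the 64, only 14 reached a mean of 1 RPKM over the libraries (3 of 17 H2A, 7 of 18 H2B, 1 of 14 H3 and 3 of 15 H4 genes), against 8 of the 12 variant genes, so 22 of 76 core histone genes passed this filter. The median cluster gene lay at 0.283, 0.21 and 0.174 RPKM. Between 13 and 15 cluster genes had 0 reads in a given library, and HIST1H2BA, HIST1H2BB and HIST1H4G had none in any. The 4 genes known from germ cells or hardly used elsewhere, HIST1H2AA, HIST1H2BA, HIST1H4G and HIST3H3, had 0 to 2 reads per library. A count of 0 allows up to 3 reads, which for a gene of 500 nt is 0.162, 0.148 and 0.165 RPKM in the same order of libraries. The 50 cluster genes under the filter had at most 46 reads each and 284, 204 and 228 reads together. The members nearest to the limit were HIST1H3D at 0.998 RPKM and HIST1H2AG at 0.996 RPKM just under it and HIST2H4B at 1.33 RPKM just above.

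**Figure D1:**
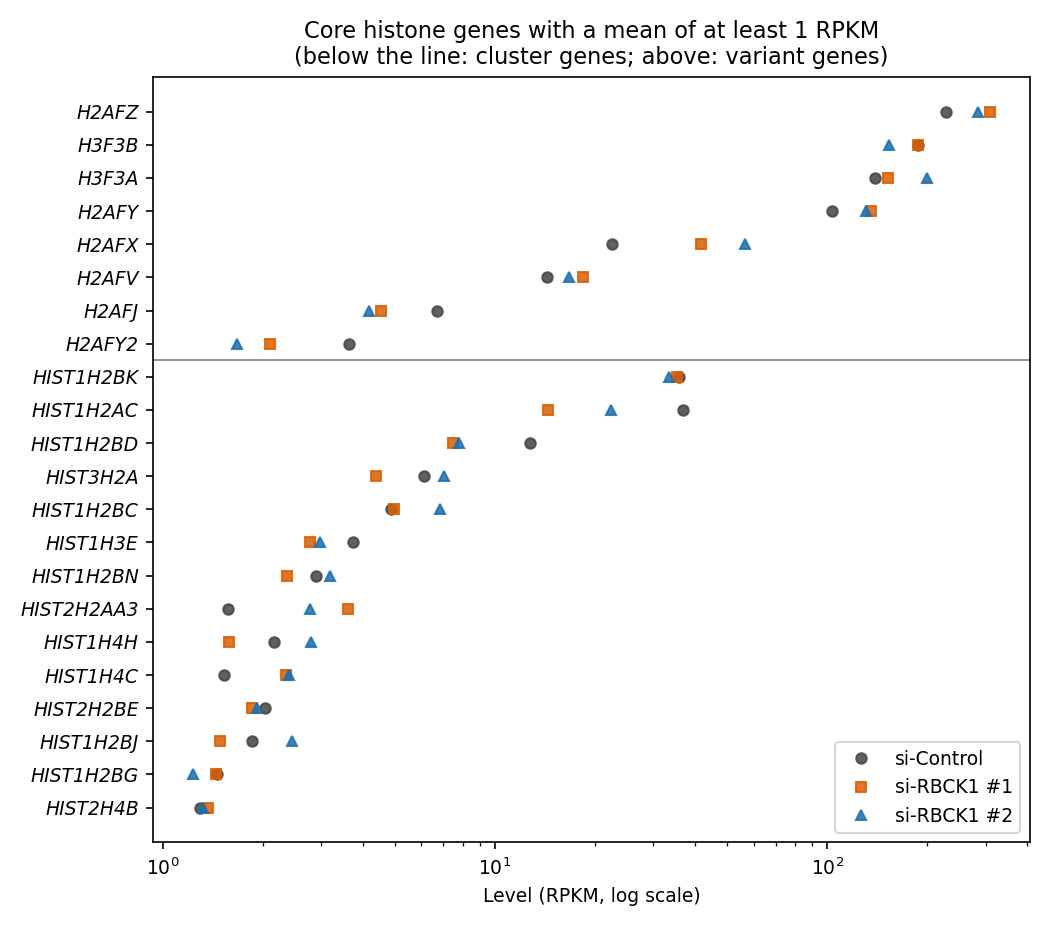
Level in RPKM (log axis) of the 22 core histone genes that passed the filter, with 1 point per library and no replicates; si-Control is a circle, si-RBCK1 #1 a square and si-RBCK1 #2 a triangle, and a circle can lie under another mark. Variant genes such as H2AFZ reach 309 RPKM, while no cluster gene exceeds 36.7 RPKM.

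Most cluster signal came from a few genes. HIST1H2AC and HIST1H2BK, an H2A and an H2B gene of the large cluster on chromosome 6, held 59.2%, 58.7% and 56.4% of the reads on cluster genes. A list of 6 cluster genes that are known to give polyadenylated transcripts as well (HIST1H2AC, HIST1H2BC, HIST1H2BD, HIST1H2BK, HIST1H4H and HIST2H2BE) held 72.6% of the summed cluster RPKM with si-Control, 68.3% with si-RBCK1 #1 and 67.9% with si-RBCK1 #2. All 6 of these passed the filter, as did 8 of the other 58 cluster genes.

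Other RNAs without a poly(A) tail ran from no reads to levels above every cluster gene. Of 18 such RNAs in the table, 9 had at most 2 reads in every library, and the U1 (RNU1-1), U4 (RNU4-1 and RNU4-2) and U5 (RNU5A-1 and RNU5B-1) spliceosomal RNAs, which are abundant in nuclei, had 0 to 2 reads. RNU7-1, the U7 RNA that takes part in histone mRNA 3′ processing, had 0 reads in every library. RN7SK, a regulator of transcription elongation, was at 1.14, 4.17 and 16 RPKM. RN7SL1 and RN7SL2, the RNAs of the signal recognition particle, were at 58.5, 84.7 and 282 RPKM and at 100, 130 and 295 RPKM. The 5 RNAs of this list with a mean of at least 1 RPKM were higher than si-Control in both libraries, beside 51.5% and 53.5% of all genes. Their median log2 ratios were 0.41 and 1.55. Among them, SNORD3A had only 7, 13 and 10 reads and RPPH1 18, 22 and 57 reads. With si-RBCK1 #1 both differed from si-Control by less than counting error, as did SNORD3A with si-RBCK1 #2. SNORD3A, at 0.874, 1.48 and 1.27 RPKM, passed the filter only through its siRNA values. Under the filter, RMRP had 12, 1 and 11 reads (1.21, 0.0923 and 1.13 RPKM) and missed the limit through si-RBCK1 #1. The count of 5 higher RNAs therefore depended on the filter. Without the filter the medians were 0.22 and 0.28. The named U1, U4 and U5 RNAs are 117 to 164 nt long, and RN7SK, RN7SL1 and RN7SL2 are 299 to 332 nt long. TERC, of 451 nt, had 8, 16 and 15 reads. The part of length in these levels was not tested. How completely RNAs without a poly(A) tail were captured in each library, and its part in the cluster values, was not tested.

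With si-RBCK1 #1, the 14 cluster genes past the filter were lower than with si-Control by their median and the 8 variant genes higher. On the log2(RPKM + 1) scale, where 1 RPKM is added so that a ratio understates the change of low genes, the median log2 ratio of the 14 cluster genes was -0.14, and that of the 8 variant genes was 0.23. With si-RBCK1 #2 the cluster median was 0.06 and the variant median 0.26. The direction of the cluster median with si-RBCK1 #2 depended on the filter, since over the 5 cluster genes with a mean of 5 RPKM or more it was -0.10. Without a filter the cluster medians were -0.0093 and 0.013. Without H2AFX the variant medians were 0.13 and 0.20. In bulk RNA, a change in the number of cells that express a gene and a change in RNA per cell cannot be told apart. Over all 12403 genes past the filter the medians were 0.02 and 0.03. The cluster median minus the variant median was -0.37 with si-RBCK1 #1 and -0.20 with si-RBCK1 #2. It kept its sign but not its size under other filters, at -0.07 and -0.25 without a filter and at -0.73 and -0.42 with a mean of 5 RPKM or more.

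With si-RBCK1 #1, 4 of 14 cluster genes were higher and 10 lower, beside 51.5% and 48.4% of all genes. With si-RBCK1 #2, 8 were higher and 6 lower, beside 53.5% and 46.4% of all genes. At least 2-fold lower with si-RBCK1 #1 was 1 cluster gene, HIST1H2AC, beside 3.27% of all genes, and with si-RBCK1 #2 there was none, beside 2.27%. No cluster gene was at least 2-fold higher in either library. Among the variant genes, 5 of 8 were higher and 3 lower with either siRNA. H2AFX was the 1 variant gene at least 2-fold higher, with si-RBCK1 #2, and none was so with si-RBCK1 #1; the background was 2.5% and 2.91% of all genes. Of these counts, the 10 of 14 lower with si-RBCK1 #1 stood farthest from the share over all genes. On reads alone, without the added 1 RPKM, HIST2H2AA3 also passed 2-fold (2.3 times si-Control with si-RBCK1 #1), as did H2AFY2 (0.463 times with si-RBCK1 #2).

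For single genes, the reads themselves give a 95% interval (exact Clopper-Pearson, scaled by the library totals, with no pseudocount) that covers counting error only and not differences between cultures. Where a gene length had to be searched, the reads are the smallest that the values allow, which was so for 2 of the 14 cluster genes and 6 of the 8 variant genes. With si-RBCK1 #1, this interval of the log2 ratio lay below 0 for 3 cluster genes, above 0 for 1 and held 0 for the other 10. With si-RBCK1 #2 it lay below 0 for 2, above 0 for 2 and held 0 for 10. For the variant genes it lay above 0 for 5 and below 0 for 2 with si-RBCK1 #1, and above 0 for 5 and below 0 for 3 with si-RBCK1 #2.

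**Figure D2:**
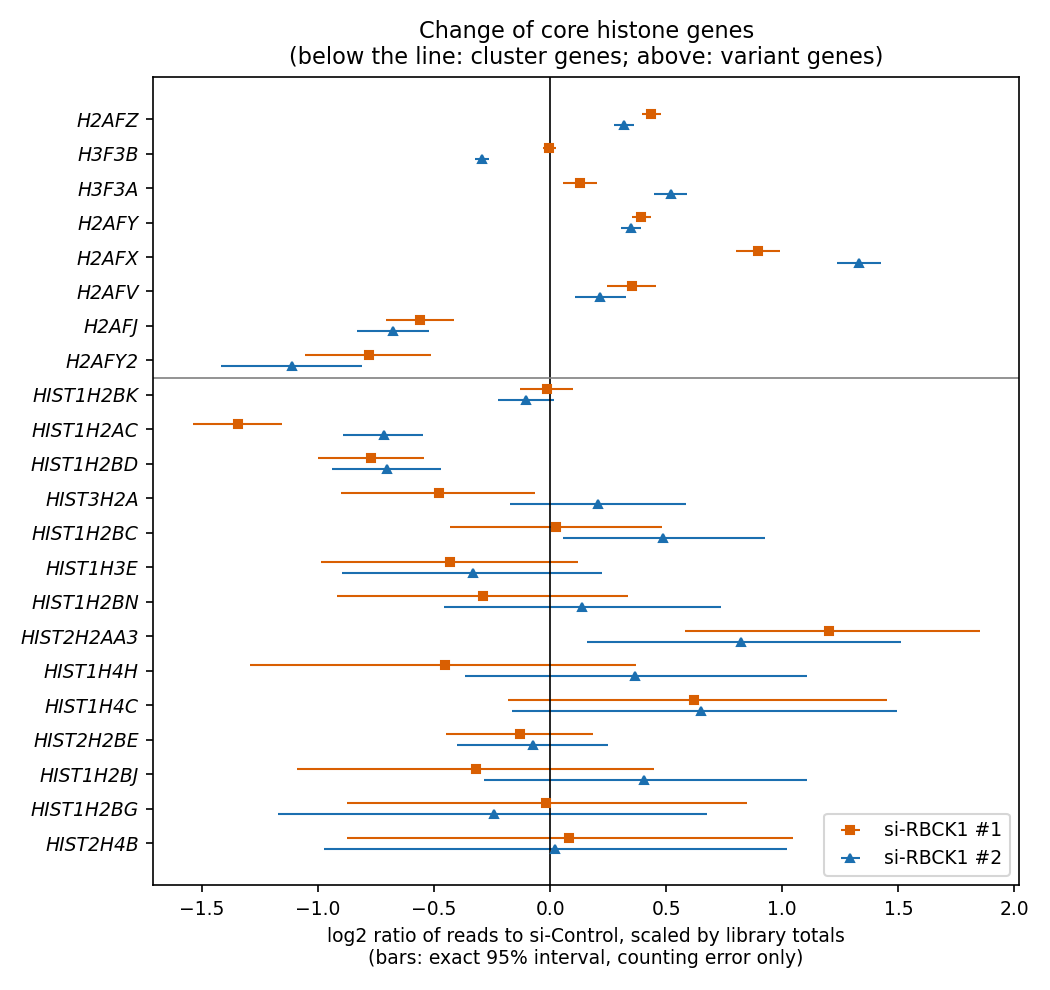
Log2 ratio of reads to si-Control for the 22 genes past the filter, as squares for si-RBCK1 #1 and triangles for si-RBCK1 #2, with exact 95% intervals from counting error alone; both share the si-Control library. The intervals of HIST1H2AC, HIST1H2BD, H2AFJ and H2AFY2 lie left of 0 with both siRNAs. Those of HIST2H2AA3, H2AFX, H2AFZ, H2AFY, H2AFV and H3F3A lie right of it.

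Among the H2A cluster genes, HIST1H2AC (chromosome 6, 26124373 to 26124918, plus strand, in the table's hg19 coordinates) was at 36.7, 14.4 and 22.3 RPKM (740, 319 and 443 reads). It encodes a canonical H2A and was the highest cluster gene of the si-Control library. Both si-RBCK1 libraries lay below si-Control, at 0.394 times (interval 0.344 to 0.449) and 0.608 times (interval 0.539 to 0.685) its reads. The lower value was that of si-RBCK1 #1, and the log2 ratio of si-RBCK1 #2 to si-RBCK1 #1 was 0.63 (interval 0.42 to 0.84). HIST1H2AC alone made up 71.3% of the summed H2A cluster RPKM with si-Control and 55.6% and 63% with the siRNAs. Summed over the 17 H2A cluster genes, the level was 51.5, 26 and 35.5 RPKM.

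HIST3H2A, an H2A gene of the small cluster on the long arm of chromosome 1, was at 6.11, 4.39 and 7.05 RPKM (112, 88 and 127 reads). It lay below si-Control with si-RBCK1 #1 (log2 ratio on reads -0.48, interval -0.90 to -0.06) and above it with si-RBCK1 #2 (0.20, interval -0.17 to 0.58), so the 2 siRNAs did not share a direction. HIST2H2AA3 was at 1.57, 3.61 and 2.78 RPKM (31, 78 and 54 reads), the highest ratio among the 14 cluster genes past the filter with either siRNA. Its copy HIST2H2AA4, whose annotated transcript contains all of the shorter HIST2H2AA3 transcript, had 23, 11 and 10 reads, and reads cannot be divided between such copies with certainty. Counted together, the copies had 54, 89 and 64 reads, log2 ratios of 0.59 (interval 0.09 to 1.11) and 0.27 (interval -0.28 to 0.82).

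The H2B cluster genes were the best measured family. HIST1H2BK was at 35.8, 35.4 and 33.3 RPKM (1172, 1270 and 1075 reads). The 3 values lay close together, and the intervals of the log2 ratio on reads, -0.13 to 0.10 and -0.22 to 0.02, held 0. HIST1H4I lies within HIST1H2BK on the opposite strand, and the strand setting of the counting is not given in the sources used here.

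HIST1H2BD was at 12.7, 7.46 and 7.82 RPKM (405, 260 and 245 reads). It was lower in both si-RBCK1 libraries, at 0.586 times (interval 0.5 to 0.687) and 0.615 times (interval 0.522 to 0.722) the reads of si-Control, and those libraries differed by less than counting error. HIST2H2BE was at 2.03, 1.86 and 1.93 RPKM (167, 167 and 156 reads), with intervals that held 0. The remaining H2B genes past the filter, HIST1H2BN, HIST1H2BJ and HIST1H2BG, had 20 to 52 reads per library, and their intervals held 0 with both siRNAs.

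HIST1H2BC is the neighbour of HIST1H2AC, and the genes are transcribed away from each other from starts 240 bases apart. HIST1H2BC was at 4.88, 4.97 and 6.85 RPKM (79, 88 and 109 reads). Where HIST1H2AC was lower with both siRNAs, HIST1H2BC had log2 ratios on reads of 0.02 (interval -0.43 to 0.48) and 0.49 (interval 0.06 to 0.92). HIST1H2BC reads per HIST1H2AC read were 0.107, 0.276 and 0.246. There are 12 such head-to-head H2A and H2B pairs among the cluster genes, with gaps of 223 to 346 bases, and this was the 1 pair with both genes past the filter.

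The region between HIST1H2AC and HIST1H2BC is shown because both genes start from it. The window runs from 250 bases before to 50 bases after the HIST1H2AC start, chr6:26123922-26124221 on the plus strand of GRCh38.p14 (RefSeq), and it shares 255 of its 300 bases with the HIST1H2BC window on the other strand. The H2AFX window, chr11:119095416-119095715 on the minus strand, is shown for the variant gene with a stem-loop. Capitals mark the CCAAT box, the TATAAA element and the octamer, spelled ATTTGCAT, on either strand.

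HIST1H2AC: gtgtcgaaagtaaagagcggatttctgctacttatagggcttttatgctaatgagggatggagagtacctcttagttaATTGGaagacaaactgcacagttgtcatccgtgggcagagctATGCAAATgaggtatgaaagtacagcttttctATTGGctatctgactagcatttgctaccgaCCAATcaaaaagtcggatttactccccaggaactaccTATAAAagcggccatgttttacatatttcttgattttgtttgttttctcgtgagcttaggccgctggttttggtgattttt
H2AFX: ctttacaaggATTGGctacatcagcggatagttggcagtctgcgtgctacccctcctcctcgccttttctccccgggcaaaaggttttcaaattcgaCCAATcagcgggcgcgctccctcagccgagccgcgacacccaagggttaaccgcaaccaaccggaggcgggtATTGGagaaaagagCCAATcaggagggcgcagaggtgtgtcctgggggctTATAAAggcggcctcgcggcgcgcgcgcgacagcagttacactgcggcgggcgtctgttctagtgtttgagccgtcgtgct

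The HIST1H2AC window holds CCAAT in both orientations, the octamer as ATGCAAAT, and TATAAA near the start. The H2AFX window holds CCAAT and TATAAA and no octamer. Promoter windows were matched by name for 70 of the 76 genes (78 windows). CCAAT, on either strand, occurred in 84.1% of 63 cluster windows and in 80% of 15 variant windows, beside 34.6% of all 35116 windows of this length. TATAAA occurred in 68.3% of cluster windows, 20% of variant windows and 11.5% of all windows. The octamer was found in 42.9% of cluster windows, 6.67% of variant windows and 1.77% of all windows. By family it was in 68.8% of H2A, 75% of H2B, 7.14% of H3 and 0% of H4 cluster windows. A match is a description of the letters and no evidence of a bound factor.

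The H3 and H4 cluster genes were close to the limit of detection. HIST1H3E, the 1 H3 cluster gene past the filter, was at 3.75, 2.78 and 2.98 RPKM (64, 52 and 50 reads). HIST1H3D, just under the filter, was at 1.32, 0.295 and 1.37 RPKM (45, 11 and 46 reads), with a log2 ratio on reads of -2.16 (interval -3.26 to -1.19) with si-RBCK1 #1, and it overlaps HIST1H2AD by 510 bases on the same strand, so its reads are uncertain. HIST1H4C was at 1.53, 2.35 and 2.4 RPKM (22, 37 and 34 reads). HIST1H4H was at 2.17, 1.59 and 2.8 RPKM (30, 24 and 38 reads). The intervals of the log2 ratio held 0 for these genes and for HIST2H4B with both siRNAs. HIST2H4A and HIST2H4B are also near-identical copies, with 26, 38 and 21 reads together.

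Summed over the 64 cluster genes, the level was 130, 96.2 and 111 RPKM. On reads, the sums of 3230, 2707 and 2693 gave 0.765 times (interval 0.727 to 0.806) and 0.847 times (interval 0.805 to 0.892) si-Control. Most of this difference lay in HIST1H2AC and HIST1H2BD. Without HIST1H2AC the ratios were 0.876 and 0.918, and without both genes they were 0.932 (interval 0.877 to 0.99) and 0.977 (interval 0.918 to 1.04). These genes were left out after their values had been seen. The 50 cluster genes under the filter were together at 0.656 times (interval 0.545 to 0.788) and 0.816 times (interval 0.682 to 0.974) si-Control. Summed by family, the ratios were 0.5 and 0.687 for H2A, 0.887 and 0.902 for H2B, 0.696 and 0.924 for H3 and 1.12 and 1.24 for H4; the intervals of H3 with si-RBCK1 #2 and of H4 with both siRNAs held 1. The H3 ratio with si-RBCK1 #1 rested on HIST1H3D: the other 13 H3 genes had 98, 98 and 84 reads, ratios of 0.913 (interval 0.683 to 1.22) and 0.871 (interval 0.643 to 1.18), in a calculation that was added after the values had been seen. The 6 genes known to give polyadenylated transcripts had ratios of 0.749 (interval 0.707 to 0.794) and 0.81 (interval 0.764 to 0.858). The other 58 had 0.83 (interval 0.74 to 0.93) and 1 (interval 0.894 to 1.12).

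The variant genes held the larger part of the core histone signal in these libraries. Their summed level was 706, 851 and 849 RPKM, a log2 ratio of 0.27 with either siRNA. Sums of reads give long genes more weight, and these reads are the smallest that the values allow. The read sums were 1.16 times (interval 1.14 to 1.17) and 1.08 times (interval 1.07 to 1.1) si-Control. For genes with a searched length the weight rests on that length, so these sums and intervals hold only for the lengths found. The cluster genes made up 15.5%, 10.2% and 11.5% of the summed core histone RPKM. H2AFZ lay above 98.3% of the protein-coding genes past the filter by mean RPKM, and HIST1H2BK, the highest cluster gene by mean, above 82.4%.

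H2AFX, which encodes the H2A.X variant phosphorylated at DNA breaks, had the highest ratio of all 22 genes with si-RBCK1 #2 and also with si-RBCK1 #1 on the log2(RPKM + 1) scale. It stood at 22.5, 41.8 and 56.5 RPKM (1322, 2692 and 3272 reads). The reads were 1.86 times (interval 1.74 to 1.99) and 2.51 times (interval 2.36 to 2.68) those of si-Control. The si-RBCK1 #2 library was above the si-RBCK1 #1 library, with a log2 ratio of 0.44 (interval 0.36 to 0.51). The H2AFX share of the summed variant H2A RPKM was 5.94% with si-Control, 8.18% with si-RBCK1 #1 and 11.4% with si-RBCK1 #2.

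H2AFZ and H2AFV encode the H2A.Z variants, found at promoters and enhancers. H2AFZ was at 228, 309 and 285 RPKM, with log2 ratios of 0.43 and 0.32. H2AFV was at 14.4, 18.4 and 16.7 RPKM, with log2 ratios of 0.33 and 0.20. Both were higher in each si-RBCK1 library by more than counting error, and both by less than 1.5-fold.

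The macroH2A genes, whose products carry a large extra domain, went apart. H2AFY (macroH2A1) was at 103, 135 and 131 RPKM, with log2 ratios of 0.39 and 0.34. H2AFY2 (macroH2A2) was at 3.63, 2.11 and 1.68 RPKM (292, 186 and 133 reads), with reads at 0.582 times (interval 0.481 to 0.701) and 0.463 times (interval 0.374 to 0.57) si-Control. H2AFJ, a variant H2A gene on chromosome 12, was at 6.69, 4.54 and 4.19 RPKM (906, 673 and 558 reads), at 0.678 times (interval 0.613 to 0.75) and 0.626 times (interval 0.562 to 0.696) si-Control. H2AFY2 and H2AFJ were thus below si-Control in both libraries, and they were the 2 lowest variant genes past the filter.

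H3F3A and H3F3B encode the same H3.3 protein from separate genes. H3F3A was at 139, 152 and 200 RPKM, with log2 ratios of 0.13 and 0.52. H3F3B was at 188, 188 and 154 RPKM, with log2 ratios of 0.00 and -0.29. With the few reads of H3F3C, their summed level was 328, 340 and 353 RPKM, and the difference with si-RBCK1 #1 changes sign when libraries are scaled to equal total RPKM. On reads the sum was 1.01 times (interval 0.991 to 1.03) si-Control with si-RBCK1 #1. With si-RBCK1 #2 it was 0.891 times (interval 0.874 to 0.909), so its direction depended on the scale. These read sums rest on searched lengths of 531 nt for H3F3A and 2861 nt for H3F3B. H3F3A has an annotated coding transcript of 1863 nt, and a longer length would give its reads more weight. The read sum with si-RBCK1 #2 therefore does not settle a direction. The H3F3A share of the summed RPKM of H3F3A and H3F3B was 42.6% with si-Control, 44.8% with si-RBCK1 #1 and 56.5% with si-RBCK1 #2. Of the reads of both genes, by the searched lengths, H3F3B held 87.9%, 86.9% and 80.6%. On reads the 2 siRNAs differed for both genes, with log2 ratios of si-RBCK1 #2 to si-RBCK1 #1 of 0.39 (interval 0.32 to 0.46) for H3F3A and -0.29 (interval -0.32 to -0.26) for H3F3B. Processed copies of H3F3A elsewhere in the genome can share its reads. The other variant genes, H3F3C and the testis genes H2AFB1, H2AFB2 and H2AFB3, had between 0 and 6 reads per library.

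The genes that make, process, carry and degrade histone mRNA and protein were taken from lists of known members, which were written with earlier results of these data known. Over all genes past the filter, 51.5% were higher with si-RBCK1 #1 and 53.5% with si-RBCK1 #2. Of the 21 genes on the list of histone mRNA synthesis and 3′ end processing, 20 passed the filter, with median log2 ratios of 0.25 (14 higher, 6 lower) and 0.15 (13 higher, 7 lower). SLBP, which binds the stem-loop, was at 28, 51.5 and 50.8 RPKM, with log2 ratios of 0.86 and 0.84. SRRT, a partner of the nuclear cap-binding complex, had the highest ratios of the list, 1.94 and 1.96. NPAT, the coactivator of cluster histone genes, was at 3.18, 3.31 and 3.85 RPKM, and CASP8AP2, which is needed for their expression, at 2.97, 2.90 and 3.33 RPKM.

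The 14 genes of histone mRNA decay had medians of -0.05 (6 higher, 8 lower) and 0.02 (7 higher, 7 lower). LSM3, a subunit of the LSm ring that binds the tails of decaying mRNAs, had the highest ratio with si-RBCK1 #2 (0.84), and XRN1, the 5′ to 3′ exonuclease, the lowest with si-RBCK1 #1 (-0.64).

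The 23 histone chaperone genes had medians of 0.40 (18 higher, 5 lower) and 0.48 (17 higher, 6 lower). CHAF1A and CHAF1B, subunits of the CAF-1 complex that places histones behind the replication fork, had log2 ratios of 1.33 and 1.30 and of 1.26 and 1.19. ASF1B, a carrier of H3 and H4, had 1.17 and 1.08. ATRX, which with DAXX places H3.3, was lower (-0.94 and -0.56), and DAXX was higher (0.68 with either).

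The 25 S-phase genes had medians of 1.19 and 1.09, with 24 of 25 higher with si-RBCK1 #1 and 25 of 25 with si-RBCK1 #2. At least 2-fold higher were 16 and 14 of them, beside 2.91% and 2.5% of all genes. RRM2, a subunit of ribonucleotide reductase, had the highest ratios (2.27 and 1.92). Other examples were PCNA, the sliding clamp (1.74 and 1.51), and MCM4, a helicase subunit (1.67 and 1.80). Whole reads could be recovered for 24 of these 25 genes and not for TYMS. The median log2 ratio of the cluster genes lay below that of the S-phase genes by more than 1 with either siRNA. This gap depended on the added RPKM. With 5 RPKM added in place of 1, the medians were 0.97 and 0.88 for S-phase genes and -0.06 and 0.03 for cluster genes.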

How the data were processed

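RNA-seq was analysed from 3 libraries of Caki-1 cells, 1 per condition. The authors deposited RPKM values for 44591 genes, 1 of which has an entry that is not a number. The submitters' processing notes name FastQC, Trimmomatic, TopHat2, HTSeq and hg19. The methods name another sequencing provider than the sample records. The table's columns of the authors' own comparison (levels, fold change, p-value and q-value) were not used.

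Members were taken by symbol and gene type. The members and lists were chosen with earlier results of these data known. Log2 ratios to si-Control were computed on log2(RPKM + 1) for the 12403 genes whose mean reached 1 RPKM, and called at 2-fold. With 1 library per condition no test was run. The planned comparison needed no count model, since the unit is RPKM. Library totals were found from genes of up to 200 nt, and whole reads from the gene span or, for spliced genes, from the smallest length up to 50000 nt that fits all libraries. Named genes were RBCK1, the variant genes past the filter, the 3 highest cluster genes per family, the 5 largest rises and falls among cluster genes, SLBP, NPAT, CASP8AP2, genes known to give polyadenylated transcripts, and list genes of at least 1.5-fold, of which examples are given. Other genes were named after their values were seen. Stem-loops were sought in GENCODE v29 coding transcripts and motifs in RefSeq promoter windows. Alternatives were other pseudocounts, filters, scalings and limits. The steps were tested on simulated data in which each gene's length was its span, so the search for a length was not tested. The software was Python 3.11.15 with scipy 1.17.1, pandas 2.3.3, numpy 2.4.6 and matplotlib 3.10.9.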

Additional observations from a re-analysis of the deposited data

Results flagged for a closer look

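Histone-like genes that are not protein-coding took part in no comparison above, and 3 of them had more reads with an siRNA against RBCK1 than with si-Control by more than counting error. The pseudogene HIST2H2BD, next to HIST2H2AA3 on chromosome 1, had 5, 23 and 22 reads with si-Control, si-RBCK1 #1 and si-RBCK1 #2, log2 ratios on reads of 2.07 (interval 0.64 to 3.82) and 2.16 (interval 0.72 to 3.92). The H3F3A copy H3F3AP6, annotated as a pseudogene, had 335, 476 and 490 reads, log2 ratios of 0.38 and 0.57. Another copy, H3F3AP4, had 850, 1105 and 851 reads, with a log2 ratio of 0.25 with si-RBCK1 #1 (interval 0.12 to 0.38) and 0.02 with si-RBCK1 #2 (interval -0.11 to 0.16). Reads shared between these copies and H3F3A were not tested. The flag looked for rises only. Below si-Control by more than counting error was H3F3AP2 with 9, 1 and 0 reads (upper limits of the log2 ratio -0.45 and -0.96). H2AFZP4 had 5, 0 and 0 reads, with upper limits of -0.0052 and 0.15. HIST2H2BC, near HIST2H2AA4, had 21, 27 and 19 reads, and its intervals held 0 with both siRNAs.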

How the results depend on the processing

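Each result was recomputed under other settings. A gene or sum was taken as moved when it differed by more than its counting interval reaches to either side. For a median the typical reach of its single genes was used (0.59 for cluster genes with si-RBCK1 #1), which is not an interval of the median. The difference between class medians with si-RBCK1 #1 thus counted as unmoved at -0.07 without a filter. A count was taken as moved when it changed by more than 1.5 times, or to or from 0. Among the class, family and list values and counts, 252 did not move, 44 moved and 2 changed sign. No paired analysis was possible because the study has 1 library for each condition, and no library was left out for the same reason. In the rest of this paragraph, medians and sums are log2 ratios to si-Control, and the cause of a difference was not tested unless the setting itself changes which genes are counted. With libraries scaled to equal total RPKM, the summed H3 variants changed sign with si-RBCK1 #1 (-0.00263) and were 0.077 with si-RBCK1 #2, all variants gave 0.21 and 0.23 and the H2A variants 0.38 and 0.35. With equal medians, these sums with si-RBCK1 #2 were 0.059, 0.21 and 0.34. The summed cluster genes past the filter were -0.14 and -0.0361 without HIST1H2AC. Without HIST1H2BD as well they were -0.0388 with si-RBCK1 #1 and changed sign with si-RBCK1 #2 (0.064). Without HIST1H3D the summed reads of all H3 cluster genes gave -0.13 with si-RBCK1 #1 in place of -0.52. These 3 settings were chosen after seeing the data. Without a filter, which admits genes with few reads, 25 cluster genes were higher and 33 lower with si-RBCK1 #1 and 33 higher and 25 lower with si-RBCK1 #2, 1 was at least 2-fold higher with si-RBCK1 #1, the variant median was 0.064 with si-RBCK1 #1, and the median of other RNAs without a poly(A) tail was 0.28 with si-RBCK1 #2. With a mean of at least 5 RPKM, which leaves 5 cluster genes, 1 was higher and 4 lower with si-RBCK1 #1 and 2 higher and 3 lower with si-RBCK1 #2. Their medians were -0.40 and -0.10 and their sums -0.53 and -0.31, the H2A sum was -1.18 with si-RBCK1 #1, the variant median was 0.33 with si-RBCK1 #1, and with si-RBCK1 #2 the median of the genes known to give polyadenylated transcripts was -0.37 and that of the chaperones 0.57. With a pseudocount of 5 RPKM the S-phase medians were 0.97 and 0.88, and the chaperone median was 0.29 with si-RBCK1 #1. With 0.1 RPKM, 1 cluster gene was at least 2-fold higher with si-RBCK1 #1 and 1 variant gene at least 2-fold lower with si-RBCK1 #2. At a limit of 1.5-fold, 2 cluster genes were lower with either siRNA, beside 1435 and 1156 of all 12403 genes past the filter. At that limit, 1 cluster and 1 variant gene were higher with si-RBCK1 #1, beside 1499 of all genes. With si-RBCK1 #2, 1 variant gene was lower, beside the same 1156. At 4-fold, 0 cluster genes were lower with si-RBCK1 #1 and 0 variant genes higher with si-RBCK1 #2. Shares over all genes were not computed for the other filters, the other pseudocounts or the 4-fold limit. With means in place of medians the variant genes gave 0.14 and 0.13, and without H2AFX their median with si-RBCK1 #1 was 0.13.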
